A study of Homo sapiens with 6 samples.

Results

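The clustered protocadherin genes are the 53 protein-coding genes on chromosome 5, between 140.7 and 141.6 Mb of GRCh38, whose symbols begin with PCDHA, PCDHB or PCDHG. The rule uses position and symbol and no measured value, and takes them out of 15848 protein-coding genes with a usable start. They divide into 15 alpha, 16 beta and 22 gamma genes. Chromatin accessibility was measured by ATAC-seq, in which a transposase cuts open DNA and inserts sequencing adapters, so that reads pile up where chromatin is accessible. The cells were NCI-H1703, an established line from human lung squamous cell carcinoma. In 3 libraries the long non-coding RNA DLGAP1-AS2 had been silenced, and 3 libraries came from control cells of the same line. No other allele, agent or time point is given in the labels, nothing there says that the libraries of a group were separate cultures, and p-values therefore measure only the spread between these libraries, which may be technical. The lists measure accessibility and not RNA, so the silencing itself could not be checked in them.

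Protocadherins are cell-surface proteins of the cadherin superfamily, and the clustered ones are best known from neurons, where each cell displays its own combination of them and sister branches of a neuron recognise each other by it. In the alpha and gamma subclusters each variable first exon has its own promoter and is spliced to a set of last exons shared by the whole subcluster, whereas each beta gene is a single exon. Promoter choice among the variable exons is known to be largely random from cell to cell and to involve DNA methylation, CTCF and cohesin, which bring a chosen promoter to a distant enhancer. The C-type genes at the ends of the alpha and gamma subclusters (PCDHAC1, PCDHAC2, PCDHGC3, PCDHGC4 and PCDHGC5) have promoters of a different make-up and are used more uniformly in neurons.

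Each library has its own peak list. The silenced libraries held 162115, 167966 and 121406 peaks for replicates 1, 2 and 3, and the control libraries held 170882, 91346 and 165674. The number of reads is unknown. The lowest peak height was 3 in control replicate 2 and 2 in the other libraries, and rank scores of the 37284 regions common to all 6 lists correlated at 0.745 to 0.752 between silenced replicate 3 and each other library, against 0.821 to 0.831 among the other 5. Both libraries therefore stood apart, and values without each are given where they matter. Of the squamous markers with a start in the tables, SOX2 had a peak at its start in all 6 lists, at heights of 22, 18 and 10 in silenced and 20, 20 and 20 in control libraries. KRT5 had none, and TP63, DSG3 and PKP1 had a peak in 1 list each. The alveolar marker NKX2-1 was called in all 6 lists, at heights of 32, 31 and 16 in silenced and 30, 36 and 31 in control libraries. NAPSA of the same list was also called in all 6, and SFTPB in 2. The labelled squamous type thus had 1 of its 5 measured markers called throughout. Only the start furthest upstream was scored for each gene, so a peak at another start of a marker such as TP63 was not counted. Of the 5 neural markers with a start, SYP, RBFOX3, TUBB3 and NEUROD1 were called in all 6 lists and MAP2 in 1, and both mesenchymal markers, VIM and ZEB1, were called in all 6.

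The promoters of 8 members are shown because they pair the members with the tallest peaks in each subcluster with a member that had no peak in any library. The first 2 are C-type alpha promoters with a peak in every list, and PCDHA1 is an ordinary alpha promoter with none. PCDHB2 and PCDHB16 are the beta promoters with the tallest peaks and PCDHB3 had none. PCDHGB1 is the gamma promoter with a peak in every list and PCDHGA4, the next gene along, had none. Each stretch is 140 bases of RefSeq sequence (GRCh38.p14), on the + strand in the direction of transcription. It covers the 120 bases before the start and the first 20 of the transcript. Capitals mark CGCT, the core of the conserved element described upstream of clustered protocadherin first exons, or its reverse complement AGCG.
PCDHAC1: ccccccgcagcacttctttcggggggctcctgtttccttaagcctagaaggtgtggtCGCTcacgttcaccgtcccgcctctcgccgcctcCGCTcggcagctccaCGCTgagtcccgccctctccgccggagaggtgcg
PCDHAC2: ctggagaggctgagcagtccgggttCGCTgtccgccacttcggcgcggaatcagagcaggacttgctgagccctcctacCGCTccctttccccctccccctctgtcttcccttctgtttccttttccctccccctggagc
PCDHA1: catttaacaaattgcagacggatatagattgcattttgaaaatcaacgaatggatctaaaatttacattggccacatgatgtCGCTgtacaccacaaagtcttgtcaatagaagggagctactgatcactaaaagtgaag
PCDHB2: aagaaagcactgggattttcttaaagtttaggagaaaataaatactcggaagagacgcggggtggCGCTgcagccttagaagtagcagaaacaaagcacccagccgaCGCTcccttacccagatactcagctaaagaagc
PCDHB16: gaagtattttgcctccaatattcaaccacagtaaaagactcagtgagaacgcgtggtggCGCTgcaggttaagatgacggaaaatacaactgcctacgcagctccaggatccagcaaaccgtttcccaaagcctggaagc
PCDHB3: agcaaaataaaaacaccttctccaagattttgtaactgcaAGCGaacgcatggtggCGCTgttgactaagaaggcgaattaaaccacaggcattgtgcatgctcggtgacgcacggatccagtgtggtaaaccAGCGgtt
PCDHGB1: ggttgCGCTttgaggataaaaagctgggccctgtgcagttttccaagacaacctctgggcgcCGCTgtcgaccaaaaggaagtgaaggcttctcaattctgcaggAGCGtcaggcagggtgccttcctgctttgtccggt
PCDHGA4: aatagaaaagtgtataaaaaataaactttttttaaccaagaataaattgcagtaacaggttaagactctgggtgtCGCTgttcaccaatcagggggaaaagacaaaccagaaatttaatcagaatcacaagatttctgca
In the same order, the stretches lie at chr5:140926179-140926318, chr5:140966356-140966495, chr5:140786020-140786159, chr5:141094495-141094634, chr5:141182267-141182406, chr5:141100353-141100492, chr5:141349979-141350118 and chr5:141354901-141355040.

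Of the 53 members, 47 had a promoter entry in the RefSeq table (250 bases before to 50 after the start). CGCT on the transcribed strand occurred in 46 of the 47 (97.9%), against 54.3% of all 35116 promoters in the table. The difference between the sets was larger by position. With the first base between 100 and 30 bases before the start, a zone set after the positions were seen, 43 of 47 members (91.5%) held it, against 21.6% of all promoters. On the opposite strand in the same zone the shares were 19.1% of members and 21.8% of all promoters. PCDHA9 had no CGCT on the transcribed strand, and counted from the start PCDHB5 had its only copy at −11, PCDHB8 at 3 and PCDHGB2 at −199. Member promoters other than the C-type were poor in G and C, with a median GC content of 38.7% against 58.7% over all promoters. Among the 11221 promoters of the same GC range (32.3% to 51.3%), CGCT lay on the transcribed strand in that zone in 6.54%.

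**Figure D1:**
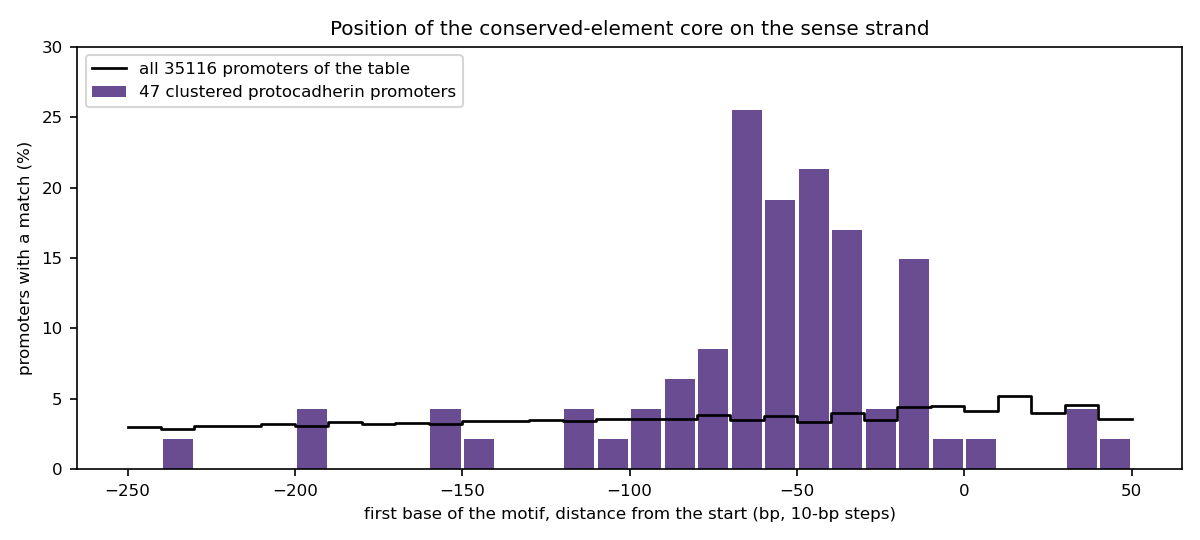
Share of promoters (y axis, percent) with a CGCT in each 10-base bin by distance of its first base from the start (x axis, bases), for the 47 members (bars) and all 35116 promoters (line). Members peak at 25.5% in the bin that begins 70 bases before the start, where all promoters stand at 3.47%.

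Longer words of 10 bases, picked because many member promoters share them, differed by subcluster. Their larger share among members than over all promoters, which include the members, follows in part from that choice. GGTGGCGCTG, which contains the core, was found in 12 member promoters, all of them beta (25.5% of the 47), and in 63 of all promoters (0.179%). Among them are PCDHB2 and PCDHB16, with tall peaks, and PCDHB3, with none. GCGCCGCTGT was found in 9 gamma promoters (19.1%) and in 28 of all (0.0797%), PCDHGB1 among them. A loose form of the CTCF motif matched in 1 member, PCDHB9, and in 845 of all promoters (2.41%), which says only that these letters are absent from the other windows. Members with and without peaks both held the core: it lay in the zone in 7 of 8 members with a peak in all lists (87.5%), in 20 of 22 with a peak in 1 to 5 lists (90.9%) and in 16 of 17 with none (94.1%). GC content of members other than the C-type had a median of 44.1% in the 6 with a peak in all lists, 40.0% in the 22 between and 36.0% in the 15 with none.

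A member was counted as having a start peak where any peak overlapped the 1 kb on either side of its start. By that count 9 of the 53 members had a start peak in all 6 lists and 19 had none in any, while 25 were called in 1 to 5 lists. Over all protein-coding genes, 60.0% had a start peak in all 6 lists and 19.2% in none. The shares among the clustered genes were 17.0% and 35.8%, given as a description with no test. Among the 3123 other protein-coding genes with promoters in the GC range of the members other than the C-type, 23.0% were called in all 6 lists and 45.4% in none, beside 7 of 48 such members (14.6%) and 17 of 48 (35.4%). Only the range was matched: median GC content was 38.7% in the 43 of these members with a promoter entry and 43.3% over all promoters of the range. Of those 43 members, 6 were called in all 6 lists and 15 in none. Heights below are the authors' pileup of reads at a peak, read within a list because they are not scaled to depth. The median of the genes' median heights was 17.5 over the 9 members called in all 6 lists, against 39.5 over all protein-coding genes called in all 6.

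**Figure D2:**
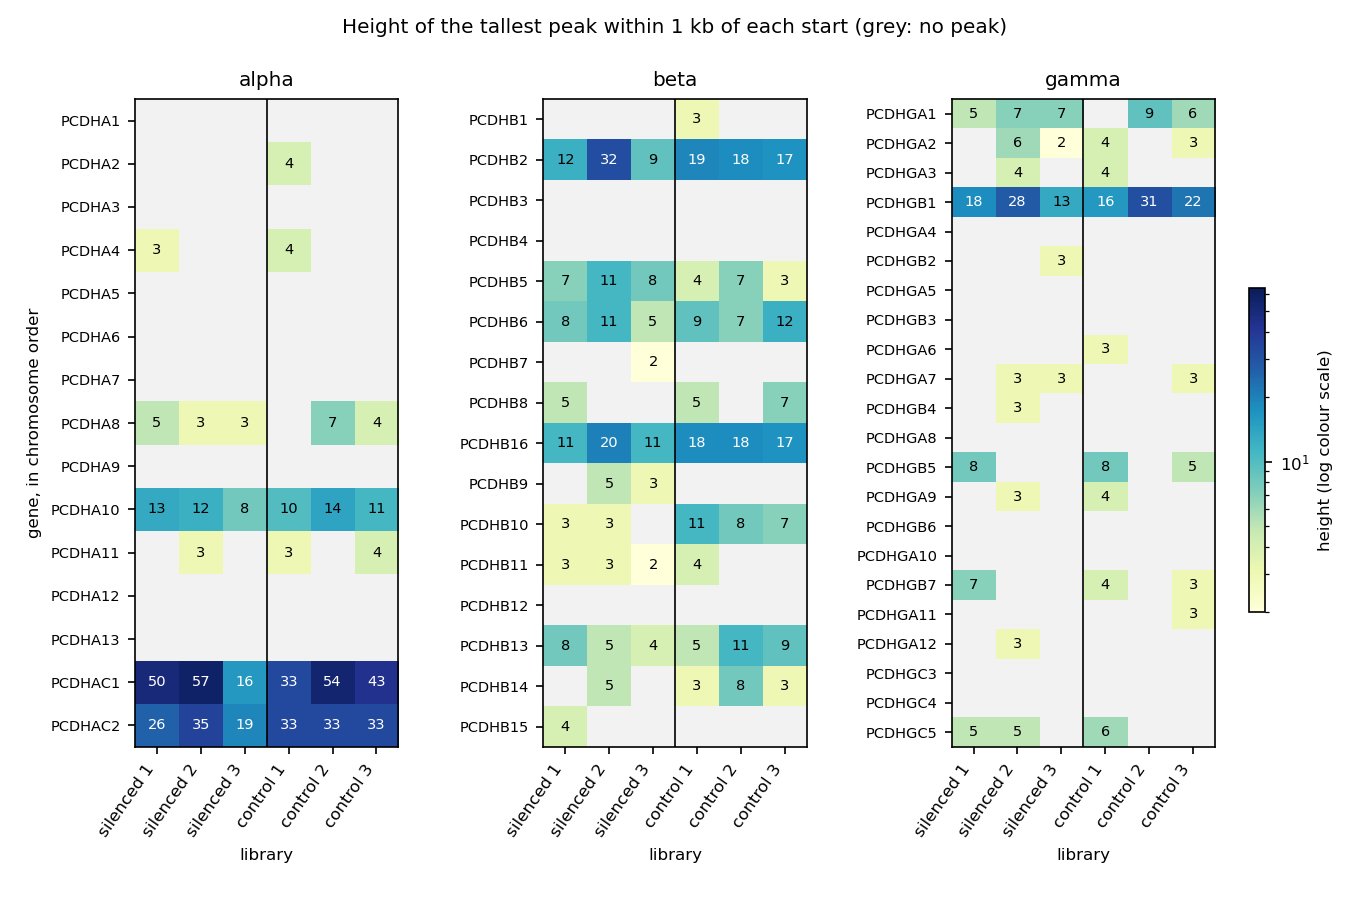
Height of the tallest start peak (number and shade) of each of the 53 members (rows, in chromosome order) in each of the 6 libraries (columns), grey where no peak was called. Rows filled across all columns number 9, and 19 rows are empty.

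In the alpha subcluster 3 of 15 genes had a start peak in all 6 lists, and 2 of the 3 are the C-type genes at its 3′ end. In the order of the replicate numbers, which is kept below, PCDHAC1 had heights of 50, 57 and 16 in silenced and 33, 54 and 43 in control libraries. Its lowest value was in silenced replicate 3 and the groups overlapped. PCDHAC2 had heights of 26, 35 and 19 in silenced and 33, 33 and 33 in control libraries, and the groups overlapped here too. The regions lay at chr5:140925991-140927194 and chr5:140966162-140967106. PCDHA10, an ordinary variable gene in the middle of the row, was the third, with heights of 13, 12 and 8 in silenced and 10, 14 and 11 in control libraries over chr5:140855720-140856739. The groups overlapped within that range of 8 to 14.

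The remaining alpha genes were mostly without a call. PCDHA8 had a start peak in 5 lists, at heights of 5, 3 and 3 in silenced libraries and 7 and 4 in control replicates 2 and 3. PCDHA2, PCDHA4 and PCDHA11 were called in 1, 2 and 3 lists, at heights of 3 or 4. PCDHA1, PCDHA3, PCDHA5, PCDHA6, PCDHA7, PCDHA9, PCDHA12 and PCDHA13 had no start peak in any list. Between PCDHA10 and PCDHAC1 a stretch of 69.3 kb (chr5:140856740-140925990) that holds 3 starts had no region in 3 or more lists, and its tallest peak had a height of 4.

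The beta subcluster had the most members called throughout, 5 of 16, at lower heights than the C-type alpha genes. PCDHB2 had heights of 12, 32 and 9 in silenced and 19, 18 and 17 in control libraries, over chr5:141094358-141095198. PCDHB16 had heights of 11, 20 and 11 in silenced and 18, 18 and 17 in control libraries, over chr5:141182153-141182503. For both genes silenced replicate 2 had the highest value, the other silenced libraries lay under every control library, and the groups overlapped. PCDHB6 had heights of 8, 11 and 5 in silenced and 9, 7 and 12 in control libraries, over chr5:141149820-141150208. PCDHB13 had heights of 8, 5 and 4 in silenced and 5, 11 and 9 in control libraries, over chr5:141213664-141214163. These are low peaks in every library, and neither gene separated the groups. The fifth gene, PCDHB5, is described with the comparison of the groups.

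Of the other beta genes 8 were called in 1 to 5 lists. PCDHB10 was called in 5 and is taken up below. PCDHB11 had heights of 3, 3 and 2 in silenced libraries and 4 in control replicate 1. PCDHB14 had a height of 5 in silenced replicate 2 and 3, 8 and 3 in control libraries. PCDHB8 had heights of 5, 5 and 7 in silenced replicate 1 and control replicates 1 and 3, and PCDHB9 was called at 5 and 3 by silenced replicates 2 and 3. PCDHB1, PCDHB7 and PCDHB15 had a single call each, at heights of 3, 2 and 4. Calls of this kind sat near the lowest height a list holds, which is 2 or 3. PCDHB3, PCDHB4 and PCDHB12 had no start peak in any list. No gap in the beta subcluster reached the length of those in the other subclusters: its longest stretch with no region in 3 or more lists was 44 kb (chr5:141050374-141094357), which holds the start of PCDHB1.

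The gamma subcluster, the largest, had 1 of 22 genes called in all 6 lists. PCDHGB1 had heights of 18, 28 and 13 in silenced and 16, 31 and 22 in control libraries, over chr5:141349870-141350654, and the groups overlapped. PCDHGA1, the first gene of the row, had heights of 5, 7 and 7 in silenced libraries and 9 and 6 in control replicates 2 and 3. PCDHGA2 was called in 4 lists, with 6 and 2 for silenced replicates 2 and 3, and 4 and 3 for control replicates 1 and 3. All 3 lie among the first 4 genes at the 5′ end, whose other gene, PCDHGA3, was called in 2 lists. PCDHGA7, PCDHGB5, PCDHGB7 and PCDHGC5 were called in 3 lists each, PCDHGA9 in 2 as well, and PCDHGB2, PCDHGA6, PCDHGB4, PCDHGA11 and PCDHGA12 in 1. The tallest of these calls, at PCDHGB5, reached 8 in silenced replicate 1 and control replicate 1. PCDHGA4, PCDHGA5, PCDHGB3, PCDHGA8, PCDHGB6, PCDHGA10, PCDHGC3 and PCDHGC4 had no start peak in any list. A stretch of 114 kb in the 3′ part of the subcluster (chr5:141398086-141512372), which holds 9 starts, had 25 regions in 1 or 2 lists, none in more, and no peak taller than 7. PCDHGB7 and PCDHGC5, called in 3 lists each, lie in it, their start peaks being split over neighbouring regions. Just past this stretch, at the 3′ end of the gamma gene spans, chr5:141512373-141512720 was called in 3 lists, at 7 and 7 by silenced replicates 1 and 3 and at 12 by control replicate 2.

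The C-type genes divided by subcluster. PCDHAC1 and PCDHAC2 had a peak in every list. PCDHGC3 and PCDHGC4 had none in any, and PCDHGC5 was called at 5, 5 and 6 by silenced replicates 1 and 2 and control replicate 1. The 4 C-type promoters with an entry had GC contents of 59.0% to 66.0%. Among the 3965 other protein-coding genes in that range, 69.7% were called in all 6 lists and 13.6% in none.

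Peaks inside the subclusters gathered at the starts. A mean of 21.7 ± 3.51 (SD, n = 3) of the 35.0 ± 4.36 subcluster peaks per silenced library lay at a start, and 21.7 ± 7.51 of 32.0 ± 13.5 per control library. In percent this was 61.8 ± 3.5 and 69.2 ± 5.56, and the groups overlapped. A further 4.33 ± 1.15 peaks per silenced and 1.67 ± 1.53 per control library lay 1 to 3 kb past a start (5, 5 and 3 against 3, 0 and 2). That difference is larger than the SD of either group, but the groups met at 3 peaks and it was not tested. Merging the 6 lists wherever peaks overlapped gave 164 regions in the window, of which 114 came from a single list and 19 from all 6, where 74.1% and 7.35% of the 507440 regions of the genome did. Of the 21 subcluster regions in 3 or more lists, 19 lay at a start, and 18 of those hold the start base itself. Relative to the start, their midpoints ran from −81 to 700 bp with a median of −6 bp. Of the 78 subcluster regions found in 1 list, 20 lay at a start. The ends of the first exons were not used here, because the tables give no exons.

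**Figure D3:**
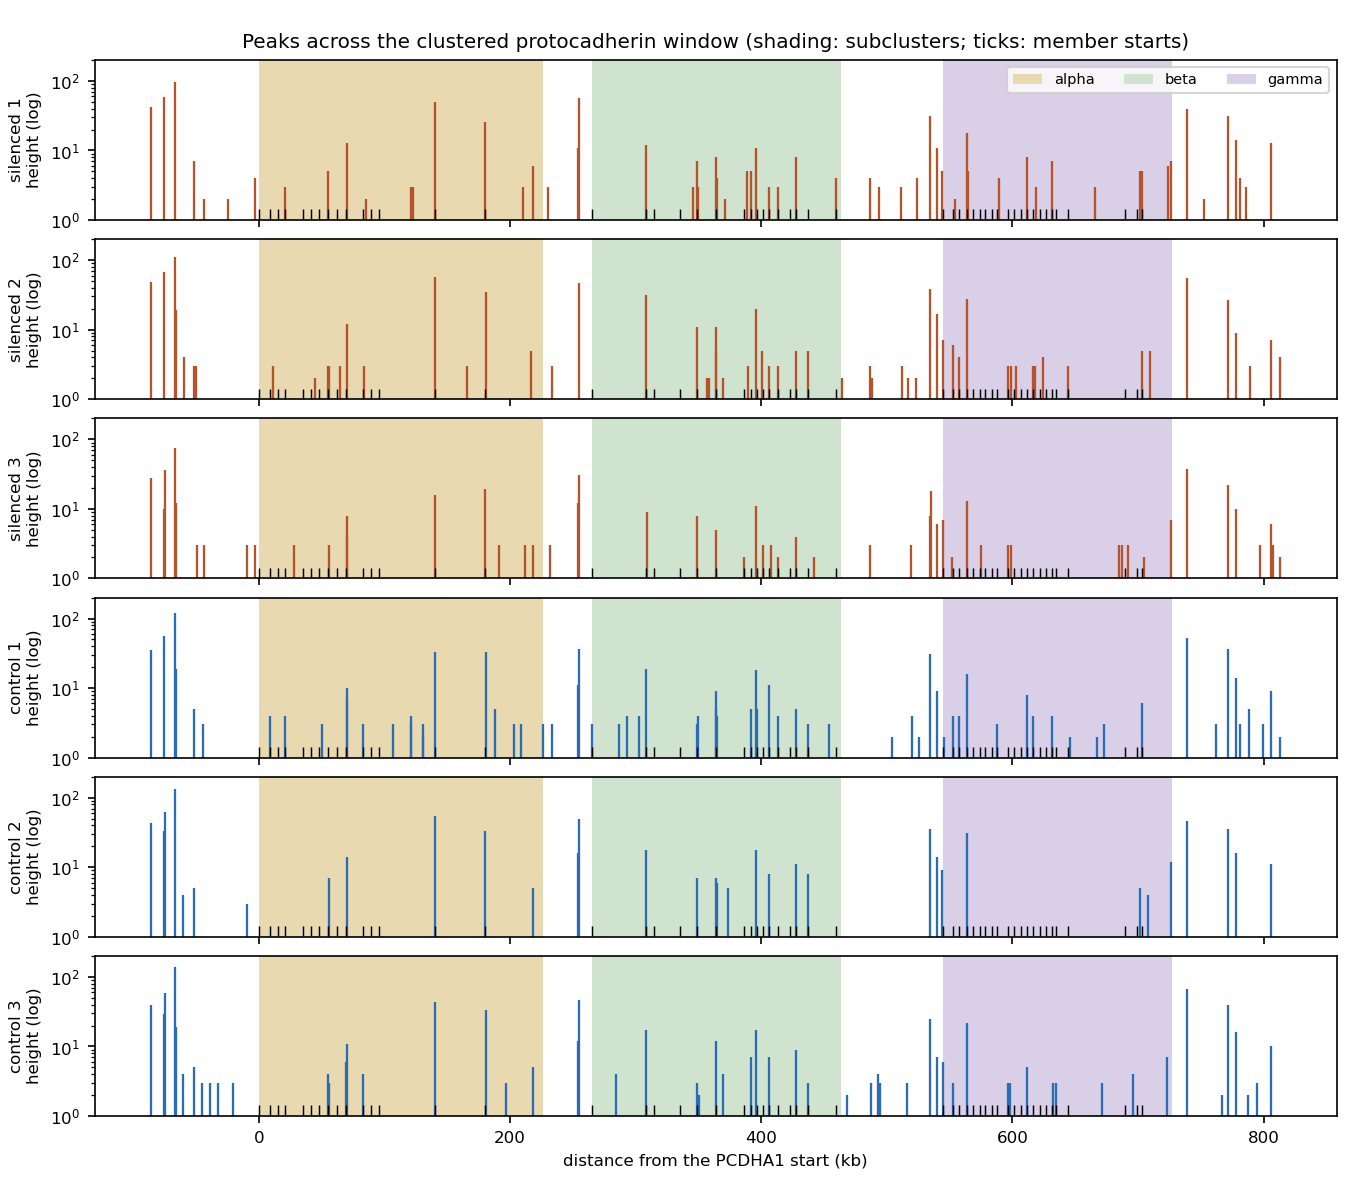
Height (y axis, log scale) of every peak in the window by distance from the PCDHA1 start (x axis, kb), with 1 row per library, the alpha, beta and gamma subclusters shaded and ticks at member starts. The tall peaks stand outside the subclusters and at the 2 C-type alpha starts, and no peak in the 3′ part of gamma is taller than 12.

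The tallest regions of the window lay outside the subclusters. All 9 subcluster regions called in every list were at member starts, and the other 10 regions called in every list lay between or beside the subclusters. Between alpha and beta, 10659 bp before PCDHB1 by its midpoint, a region at chr5:141039972-141041458 that overlaps no annotated gene had heights of 56, 47 and 31 in silenced and 36, 50 and 46 in control libraries. It was as tall as the PCDHAC1 region by median (46.5 each). An enhancer of the alpha genes is known to lie downstream of their shared last exons, but the lists carry no enhancer annotation and the region was not matched to it. Between beta and gamma the tallest region, at chr5:141320147-141321259, overlapped TAF7, a gene for a subunit of the general transcription factor TFIID. Its heights were 31, 39 and 18 in silenced and 31, 36 and 25 in control libraries. Nearer to gamma, 4309 bp before PCDHGA1, chr5:141326039-141326371 had heights of 11, 17 and 6 in silenced and 9, 14 and 7 in control libraries. Downstream of gamma the tallest region, chr5:141524627-141525171, lay within the span of DIAPH1, a gene for an actin-nucleating formin. Its heights were 40, 55 and 38 in silenced and 52, 46 and 68 in control libraries. The groups overlapped at all 4 of these regions.

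The comparison of silenced with control cells asks whether accessibility of these genes changed with DLGAP1-AS2, and no difference passed the test. The silenced libraries had start peaks at 19, 23 and 17 members and the control libraries at 24, 13 and 20, or 19.7 ± 3.06 against 19.0 ± 5.57 (SD, n = 3). The difference of 0.667 members is smaller than the spread in either group. By subcluster the means were 4.67 and 5.0 members for alpha, 8.67 and 8.33 for beta, and 6.33 and 5.67 for gamma, with overlap in each. The window held 58.3 ± 3.79 peaks per silenced and 54.0 ± 18.3 per control library. The low control value of 34 came from control replicate 2, the list with the fewest peaks genome-wide; without it the difference of 4.33 peaks became −5.67 and that in members −2.33. No member had a start peak in all 3 libraries of a group and none of the other, which was so for 0.0379% of all protein-coding genes in the silenced direction and 0.183% in the control direction. Likewise 0 of 164 window regions were called in one group only, against 0.130% and 0.200% of all regions.

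Regions in all 6 lists were compared by their rank, since heights share no scale between libraries. Within a list, each region was placed by the highest fold enrichment among its peaks, the places were converted to normal scores, and limma was fitted over all 37284. The test called 0 regions (0%) at an adjusted p under 0.05. At an unadjusted p under 0.05 there were 739 higher in silenced cells (1.98%) and 1007 lower (2.70%). Of the 19 window regions tested, 10 had a higher and 9 a lower mean score in silenced cells, 1 in each direction had an unadjusted p under 0.05, and adjusted p (limma) ran from 0.963 to 1. Over the 9 member regions, 5 were higher and 4 lower with a median difference of 0.02 score units, where all regions had 0.01.

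At 8 of the 9 member regions the groups differed by less than the SE. The place of a region is given as its percentile among the 37284 by fold enrichment. PCDHAC2 stood at 71.6, 73.2 and 71.8 in silenced and 73.3, 70.2 and 73.3 in control libraries, a difference in score of 0.00 (SE 0.22; adjusted p 1 by limma). PCDHGB1 stood at 72.0, 88.9 and 74.5 in silenced and 69.6, 87.5 and 78.7 in control libraries, also a difference of 0.00 (SE 0.24). PCDHAC1 stood at 88.9, 88.2 and 68.7 in silenced and 73.3, 87.8 and 79.7 in control libraries (difference 0.09, SE 0.24). These 3 regions stood above the median region in every library. The differences at PCDHA10, PCDHB2, PCDHB6, PCDHB16 and PCDHB13 were 0.11, 0.02, 0.26, −0.10 and −0.27 with SEs of 0.30, 0.28, 0.36, 0.25 and 0.42, so that none exceeded its SE. A p that misses the threshold does not show that these values were the same: with an SE of 0.22 to 0.46, shifts of the size of the SE could not be told from none. Larger shifts could be missed too. In simulated scores for 37284 regions, 21 of 200 regions shifted by 1 score unit were recovered, and 153 of 200 shifted by 2 units. Both sets were shifted in the same simulation, and each region had the same SD in all libraries. Recovery of a region shifted alone was not simulated.

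**Figure D4:**
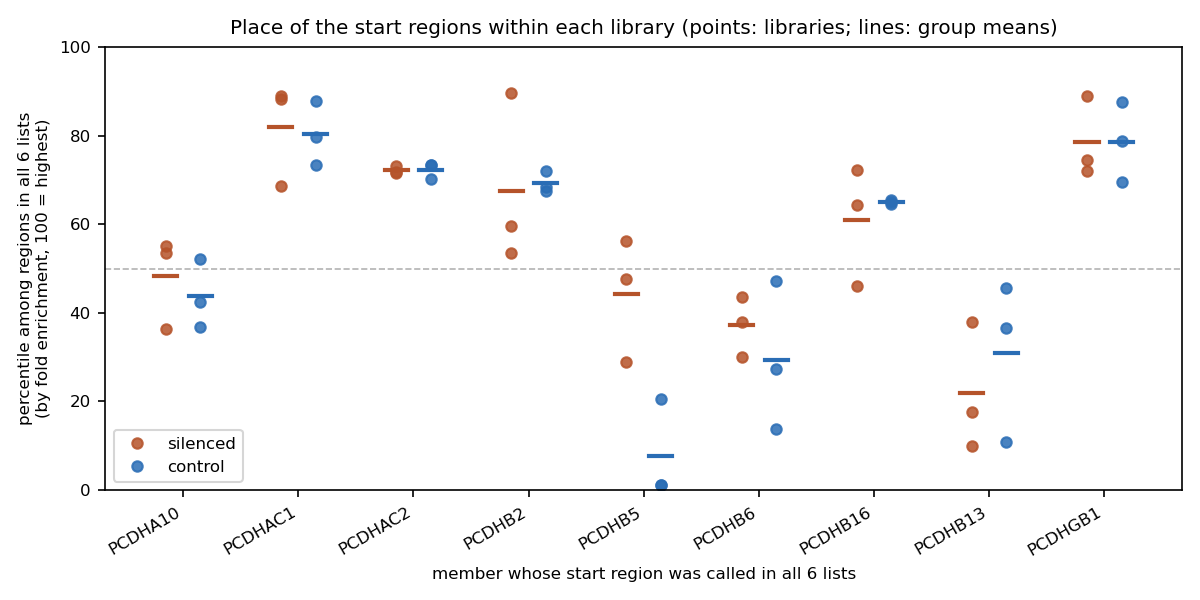
Percentile by fold enrichment among the 37284 regions common to all lists (y axis) of the 9 member start regions (x axis), with 1 point per library a bar at each group mean (n = 3) and a dashed line at the median region. PCDHB5 is the only member of the 9 whose groups do not overlap, with control replicates 1 and 3 at 1.2 and 1.17, and its adjusted p was 0.963.

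PCDHB5 had the largest difference of the 9 members called in all 6 lists and did not pass the test over all regions. At its region, chr5:141134981-141135408, heights were 7, 11 and 8 in silenced and 3, 7 and 3 in control libraries. A separate peak within 1 kb of the start, of height 4, is the value of control replicate 1 in the plot of heights by member. Control replicates 1 and 3 stood near the bottom of the shared regions and control replicate 2 equalled the lowest silenced height. By percentile the values were 28.8, 47.6 and 56.1 in silenced and 1.2, 20.5 and 1.17 in control libraries, and here the groups did not overlap, as was so for 5.39% of all regions in this direction. The score was higher in silenced cells by 1.63 (SE 0.46; limma unadjusted p 0.00237, adjusted p 0.963). Leaving out each library in turn kept the difference between 1.36 and 2.03, at 1.45 without silenced replicate 3 and 2.03 without control replicate 2. The authors' FDR was 3.23e-06, 1.85e-10 and 3.87e-08 in silenced and 0.0958, 1.196e-05 and 0.0886 in control libraries. At an FDR of at most 1e-05, PCDHB5 was therefore the only gene of the 15848 with a start peak in all 3 silenced and no control library (0.00631%), and control replicate 2 lay just past that limit. Under the FDR limit of 0.05, a height of at least 4 and equal list lengths, where 0.00631%, 0.0126% and 0.0189% of all genes were start peaks of the silenced group alone, no member was.

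PCDHB10, further along the row, differed in the opposite direction. Its start peak was 3 high in both silenced replicate 1 and silenced replicate 2, was not called in silenced replicate 3, and reached 11, 8 and 7 in control libraries, over chr5:141192146-141192683. Every control value lay above every silenced value. In the fit over the 60085 regions called in at least 4 lists, with absent calls tied at the lowest rank, the score was lower in silenced cells by a difference of −1.42 (SE 0.44; limma unadjusted p 0.00308, adjusted p 0.957). In the same fit PCDHB5 was higher by 1.21 (SE 0.41; limma unadjusted p 0.00596, adjusted p 0.957), a smaller difference than at PCDHB10. Without silenced replicate 3, over the regions in the other 5 lists, the difference at PCDHB10 was −1.87 (SE 0.45; adjusted p 0.962). In the fit over 60085 regions 4.99% of regions were lower without overlap and 5.31% higher, and 0 were called (0%). The authors' FDR was 0.0925 and 0.112 in the silenced libraries with a call and 9.45e-12, 7.14e-07 and 2.54e-06 in the control libraries. PCDHB10 was thus a start peak of the control group alone under an FDR limit of 1e-05 or 0.05, a height of at least 4 and equal list lengths, where 0.208%, 0.202%, 0.196% and 0.189% of all genes were.

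Among the other window regions, the one with the smallest p in the silenced-lower direction covered VTRNA1-2, a vault RNA gene upstream of alpha (chr5:140718651-140719509). Its heights, the tallest of the window, were 97, 111 and 74 in silenced and 122, 133 and 137 in control libraries, and the groups did not overlap. The score differed by −0.42 (SE 0.20; limma unadjusted p 0.0446, adjusted p 0.963), where 4.78% of all regions were lower without overlap. Next in that direction were 2 regions within DIAPH1, with differences of −0.22 and −0.20 (limma adjusted p 0.965 and 0.966). The first, chr5:141557622-141558170, had heights of 31, 27 and 22 in silenced and 36, 36 and 39 in control libraries, which did not overlap in height but did in rank, and the second is the tallest region downstream of gamma given above. In the other direction PCDHB5 was followed by the region before PCDHGA1 at 0.40 and the start of ZMAT2 at 0.20 (both limma adjusted p 0.965). ZMAT2 had heights of 42, 48 and 28 in silenced and 35, 43 and 40 in control libraries. The first exons of neighbouring protocadherin genes resemble each other closely, and how reads that match several of them were assigned is not given in the sources used here; its part in these calls was not tested.

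Genes that act on the clustered protocadherins, and other gene clusters, are given for reference. Of 13 regulators of promoter choice (CTCF, cohesin subunits, the cohesin loader NIPBL and the release factor WAPL, DNA methyltransferases, SMCHD1 and SETDB1) 12 had a start in the table, and 11 of the 12 had a start peak in all 6 lists, where 60.0% of all protein-coding genes did and 19.2% had one in none. CTCF itself had heights of 66, 89 and 43 in silenced and 76, 90 and 76 in control libraries. DNMT3B was the exception, with a single call of height 7 in control replicate 2. Of the cytoplasmic partners and surface organisers 6 of 7 were called in every list, and CELSR2 in 5. Of the non-clustered protocadherins 2 of 10, PCDH9 and PCDH19, were called in all 6 lists, and 4 (PCDH1, PCDH11X, PCDH12 and PCDH15) in none. Among other gene clusters, 1 of 34 keratin genes was called in all lists and 15 in none, and 1 of 135 olfactory receptor genes of chromosome 11 in all and 119 in none (88.1%). Genes with no start in the table were left out of these counts. The full lists hold 10 partners and organisers, 12 non-clustered protocadherins, 55 keratin genes and 171 olfactory receptor genes. Of the unrelated genes whose spans reach into the window, DIAPH1, TAF7 and ZMAT2 had a start in the table. All 3 had a start peak in all 6 lists, though that of DIAPH1 lies outside the window. SLC25A2 had no start in the table. These counts describe the lists and were not tested against each other.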

How the data were processed

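ATAC-seq of 3 DLGAP1-AS2-silenced and 3 control libraries was analysed from 6 peak lists, 1 per library, made from 10000 to 50000 cells each. Per the submitters' processing notes, Trimmomatic 0.36, Bowtie2 2.2.6, Picard 2.8.2, MACS2 2.1.1 and bedtools 2.25.0 were used with GRCh38; their settings, any shift of read ends for the transposase and the handling of reads that match several places are not given in the sources used here. Per the file headers, the authors deposited for each peak a fold enrichment (a ratio), a p-value, an FDR (an adjusted p-value) and a pileup signal, here called height. No deposited p-value exceeded 0.00987, and read depth is unknown.

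Starts are the 5′ ends in the RefSeq promoter table (GRCh38.p14), which held 47 of the 53 members. Where a gene had several entries, only the start furthest upstream was used. For PCDHA3, PCDHA13, PCDHB6, PCDHB11, PCDHGA12 and PCDHGC5 the lower end of the gene span was used. Of other protein-coding genes, 4191 had no entry and were left out. Peaks were merged across lists at an overlap of 1 bp. Regions in all 6 lists were compared with limma 3.58.1 (lmFit, eBayes with trend) on normal scores of the rank within each list, with Benjamini-Hochberg adjustment over all regions and a threshold of 0.05; the procedure was tested on simulated data. Counts over members were given no p. Values by library are given for members called in all 6 lists or in one group only, the tallest region of each stretch outside the subclusters, and the 3 window regions of smallest p in each direction; further members were named after their values were seen. The members and lists were chosen with earlier results of these data known. Alternatives varied the filter on peaks, list length, distance to the start, merging, the value ranked, the regions tested, pairing and the libraries included.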

Additional observations from a re-analysis of the deposited data

How the results depend on the processing

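The small group differences in members with a start peak, window peaks and covered length turned with the filter on peaks. None of the 3 had exceeded the SD of the control libraries, though that in window peaks was larger than the silenced SD of 3.79. The difference in members with a start peak (silenced minus control, 0.667) became −0.667 with the FDR limit of 1e-05, with the looser one of 0.05 and with equal list lengths, −2 at a height of at least 4 and −0.333 within 500 bp of the start. The difference in window peaks (4.33) became −2, −0.333 and −4.67 under the FDR limits of 1e-05 and 0.05 and the height limit. The difference in covered length (0.363 kb) became −0.486, −0.335, −1.33 and −0.186 kb under those 3 filters and equal list lengths. Regions and members called in the silenced group only went from 0 to 1 each at an FDR of at most 1e-05 (PCDHB5), and those in the control group only from 0 to 1 each under all 4 filters (PCDHB10). The score difference at PCDHB2 (0.02) became −0.04 at an FDR of at most 1e-05.

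Leaving out each library in turn gave −2.33 to 3.17 for members, −5.67 to 12.3 for window peaks, −1.99 to 2.39 kb for covered length, 0 to 1 for each count of regions or members in one group only, 9 to 11 for members called in every list and 0 to 0 for shifted regions. The lowest of the first 3 came without control replicate 2 and the highest without control replicate 1. The member difference also turned to −1 without silenced replicate 2. Covered length also turned, to −0.153 kb without silenced replicate 1 and −0.759 kb without silenced replicate 2. Score differences ran from −0.04 to 0.32 at PCDHAC1, −0.34 to 0.24 at PCDHB2 and −0.25 to 0.09 at PCDHB16, turning without silenced replicate 1 (PCDHAC1, −0.04; PCDHB16, 0.09), silenced replicate 2 (PCDHAC1, −0.02; PCDHB2, −0.34) or control replicate 1 (PCDHAC1, −0.03). Members called in all 6 lists numbered 6 at an FDR of at most 1e-05 (9 in the report), an alternative added after seeing the data.

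Equal replicate numbers did not pair the libraries (correlations of deviations −0.00196, 0.00238 and −0.00829). With the number as a replicate block, limma called 0 regions with 1770 at an unadjusted p under 0.05, the smallest adjusted p in the window was 0.975, and the differences in members and peaks stayed at 0.667 and 4.33. In every setting of the limma fit 0 regions were called, with 854 to 2462 at an unadjusted p under 0.05 and a smallest adjusted p of 0.455 (without silenced replicate 2). Read depth is unknown, so how far it limits the low calls was not tested.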

Other observations

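The protocadherin pseudogenes of the window, which are not among the 53 genes, were mostly without a call. PCDHB17P had a peak at its start in silenced replicate 2 (height 2) and control replicate 3 (height 4), and PCDHB19P in 1 list. PCDHA14, PCDHB18P, PCDHGB8P and PCDHGB9P had none in any list.

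Inside the subclusters, 2 of the 21 regions found in 3 or more lists did not lie at a start. The better called of them, chr5:141004169-141004514 near the 3′ end of the alpha subcluster and 37865 bp past the PCDHAC2 start, was called at a height of 6 and 3 by silenced replicates 1 and 3, and at 5 and 5 by control replicates 2 and 3. The other is the region at the 3′ end of the gamma gene spans. Both were named after their values were seen.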
